A study of Rattus norvegicus with 20 samples.

Results

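Hippocampal mRNA of female TgF344-AD rats (TgF-344AD in the labels) that ate diazoxide (DZ) and dibenzoylmethane (DIB) was compared with that of untreated females of the same transgenic line. The comparison held 10 of the 20 rats of the series, 6 treated (TGTR) and 4 untreated (TGNT), taken by their labels. Both groups carried human APPsw and a second human transgene under the prion promoter, so that the comparison is one of treatment within the transgenic genotype and holds no wild-type rat. TGTR rats received 10 mg/kg of DZ and 200 mg/kg of DIB per day together in their chow, from day 52 until collection at 4 months of age. TGNT rats ate rodent chow without the drugs. By the methods of the study, rats performed a radial arm maze task at 4 months, with food restricted, before some were killed for sequencing. The drugs were never given singly, so their separate effects cannot be told apart. Each rat gave 1 stranded poly(A) library from 1 hippocampus, left according to the labels and right according to the methods of the study, with no separation of subfields.

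DZ opens ATP-sensitive potassium (KATP) channels, which tie the membrane potential of neurons and other cells to their supply of ATP. DIB relieves the block of translation that follows phosphorylation of eIF2α, the initiation factor through which the unfolded protein response of the endoplasmic reticulum (ER) slows protein synthesis while it favours translation of the transcription factor ATF4. Neuronal activity is seen in hippocampal mRNA by another route, since immediate early genes such as Fos and Arc are transcribed within minutes of synaptic input. The comparison addresses which transcripts differ after this combined treatment, at an age before plaques form. It was read across all genes, by gene families and pathways, and by markers of the cell types and regions that a hippocampal dissection can hold.

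Library totals ran from 11151973 to 13481985 estimated counts in TGNT and from 9215039 to 14175594 in TGTR rats (p = 0.662 for their means by a two-sided exact permutation test), so that 1 read stood for 0.0705 to 0.109 RPM, the scaled reads of the authors' table of levels. The defining genes of hippocampal neurons were present in every library: the 17 measured markers of mature neurons had a summed RPM of 7369 to 7807 in TGNT and of 6824 to 7664 in TGTR rats, and Prox1, the marker of dentate granule cells, had a mean of 121 RPM. App, counted over the rat gene and the human transgene, averaged 2532 RPM in TGTR (± 163, SD, n = 6) and 2478 RPM in TGNT (± 179, SD, n = 4; p = 0.629 by the same permutation test), so the transgenic groups did not differ in it beyond the spread between rats. Several libraries stood apart. TGTR 5 held choroid plexus and meningeal RNA, with 2501 RPM of Ttr, the thyroid hormone carrier made by the choroid plexus, against 108 RPM in TGTR 6 and 0.714 to 11.7 RPM in the other 8 rats. TGTR 4 held blood RNA, with 669 RPM of the haemoglobin gene Hba1 against 80.2 to 128 RPM in the others. The first principal component of the log counts, with 36.6% of the variance, set TGTR 5 apart, and the second, with 18.2%, set apart TGNT 1 and TGTR 2, which had the highest levels of ventral hippocampal markers. The third, with 10.4%, followed the groups in part. TGNT rats scored -15.4 to -1.36 on it and TGTR rats 3.65 to 12.3, except TGTR 5 at -4.73. By two-sided exact permutation tests of group means, p was 0.595, 0.476 and 0.0190 for the 3 components. Values without the libraries that stood apart are given beside several of the results that they touch.

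Across the 12029 genes with a mean of at least 10 estimated counts, called measured genes from here on, the difference between TGTR and TGNT rats was small and centred on 0. The median log2 fold change was 0.00025, the middle 50% of genes lay between -0.06 and 0.07, and 64.5% of genes differed by less than 0.1 on the log2 scale in either direction. With edgeR's quasi-likelihood test and Benjamini-Hochberg adjustment over all 17168 genes of the table, 0 genes (0.0%) passed an adjusted p of 0.05 with a fold change of at least 1.5, and the lowest adjusted p was 0.149. Other tests of the same counts passed a few: edgeR's exact test and DESeq2 each passed 3, Slc17a6, Cntn6 and LOC310926, edgeR's likelihood ratio test 5, with Npsr1 and Clec3a in addition, and limma on the RPM values 0. At an unadjusted p under 0.05, the description used below, 739 measured genes or 6.14% were set apart. If no gene differed, 5% or about 601 would be expected at that threshold. Of these, 469 were higher (3.9% of measured genes) and 270 lower (2.24%) in TGTR rats. Scaling by library totals alone, without TMM factors, gave 821 higher and 116 lower, so the balance of directions depends on the scaling. All 6 TGTR rats lay above all 4 TGNT rats in 97 genes (0.806%) and below them in 78 (0.648%). Each of these orders is 1 of the 210 possible arrangements of the rats. Because 0 genes passed the adjusted threshold, the words higher and lower below give the direction of a value and not a called change. Fitted log2 fold changes (TGTR minus TGNT) are written ± their standard error, and the 739 genes had adjusted p between 0.149 and 0.990 in edgeR's quasi-likelihood test.

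Large differences were found among weakly expressed genes and were mostly upward. Of the measured genes, 181 were at least 1.5-fold higher and 30 at least 1.5-fold lower in TGTR rats, with an unadjusted p under 0.05 in 75 and 17. With genes cut into 4 equal groups by mean RPM, the lowest group, at 0.801 to 8.91 RPM, held most of these: 133 were at least 1.5-fold higher and 29 lower, and the middle 50% of log2 fold changes spanned 0.29. In the highest group, from 70.7 RPM upward, 7 were higher and 1 was lower by that amount, and the span was 0.09. The most strongly separated points in the plot of all genes are choroid plexus genes, in which TGTR 5 was the highest rat. These counts use all 10 rats and are not given without TGTR 4 or TGTR 5. Without TGTR 5 the median log2 fold change of choroid plexus genes went from 3.04 to 0.39. That of pericyte, smooth muscle and fibroblast genes went from 0.72 to 0.03, and without TGTR 4 that of blood genes from 1.03 to 0.16.

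**Figure D1:**
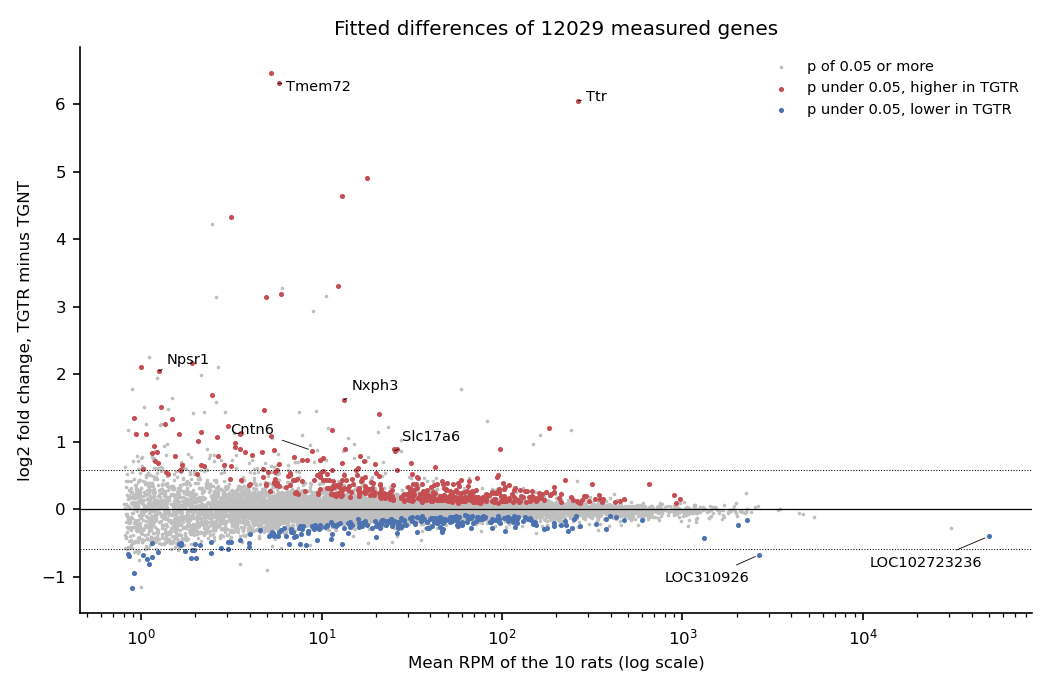
Each point is 1 of 12029 measured genes, with its mean RPM over the 10 rats on a log axis and its fitted log2 fold change (TGTR minus TGNT) on the vertical axis; dotted lines mark 1.5-fold. The 469 red points above 0 outnumber the 270 blue points below it, and the points above 3 include the choroid plexus genes Ttr and Tmem72.

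Kcnj9, which encodes the GIRK3 subunit of the G protein-gated inwardly rectifying potassium channels of neurons, had the lowest p among genes that were higher in TGTR rats. It measured 51.6, 51.0, 48.5 and 51.2 RPM in the 4 TGNT rats and from 58.7 to 61.5 RPM with a median of 60.0 in the 6 TGTR rats. The groups were tight and did not overlap (log2 fold change 0.25 ± 0.04, adjusted p = 0.248). Its estimated count was whole in 1 of 10 rats, as reads that fit several genes were divided between them, and its adjusted p ranged from 0.00401 to 1.00 over the alternatives. The same limit holds for Kcna6, Scn1a, Nr3c1, Nr4a2, Slc17a8 and Bsn, described below, whose counts were fractions in all 10 rats, for Ovca2, whole in 1 rat, and for Satb1, Npsr1 and Nr4a3, whole in 4, 5 and 5. Sstr2, the receptor through which somatostatin from interneurons inhibits pyramidal cells by way of such channels, measured 12.9, 12.2, 12.02 and 13.4 RPM in the 4 TGNT rats and from 15.5 to 20.3 RPM with a median of 17.8 in the 6 TGTR rats. Every TGTR rat again lay above every TGNT rat (log2 fold change 0.51 ± 0.09, adjusted p = 0.400). Pak1, a kinase that shapes the actin of dendritic spines, measured 182, 156, 162 and 171 RPM in the 4 TGNT rats and from 193 to 234 RPM with a median of 208 in the 6 TGTR rats (log2 fold change 0.32 ± 0.06, adjusted p = 0.400).

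Slc17a6 and Cntn6 showed the largest differences among the 7 higher genes of lowest p. Slc17a6, the vesicular glutamate transporter VGLUT2, measured 21.3, 13.5, 14.2 and 19.1 RPM in the 4 TGNT rats and from 23.6 to 39.2 RPM with a median of 31.4 in the 6 TGTR rats. Cntn6, a contactin that guides neurites and synapse formation, measured 8.32, 4.28, 4.88 and 6.35 RPM in the 4 TGNT rats and from 9.64 to 12.4 RPM with a median of 10.7 in the 6 TGTR rats. In both genes TGNT 1 and TGNT 4 were the higher of the untreated rats and no TGTR rat reached down to them. The log2 fold changes were 0.87 and 0.87, and 0.77 to 1.00 and 0.74 to 1.07 when each rat was left out in turn. The markers of the subiculum and adjoining cortex, described below, were also lowest in TGNT 2 and TGNT 3. Dpy19l1, an enzyme of protein C-mannosylation in the ER, measured 115, 105, 109 and 115 RPM in the 4 TGNT rats and from 126 to 144 RPM with a median of 136 in the 6 TGTR rats and did not overlap between groups (log2 fold change 0.28 ± 0.06). Bcor, a transcriptional co-repressor, and Nuak1, an AMPK-related kinase of axon branching, had log2 fold changes of 0.26 and 0.33 and did not overlap either. Rasgef1c, an exchange factor for Ras-like GTPases, lay low, at 1.66, 1.37, 1.73 and 1.56 RPM in the 4 TGNT rats and from 2.28 to 4.75 RPM with a median of 3.06 in the 6 TGTR rats (log2 fold change 1.07 ± 0.23). Npsr1, the neuropeptide S receptor, was at 0.876, 0.257, 0.301 and 0.276 RPM in TGNT and from 0.776 to 2.37 RPM with a median of 2.23 in TGTR rats, where TGNT 1 lay among the lower TGTR rats.

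**Figure D2:**
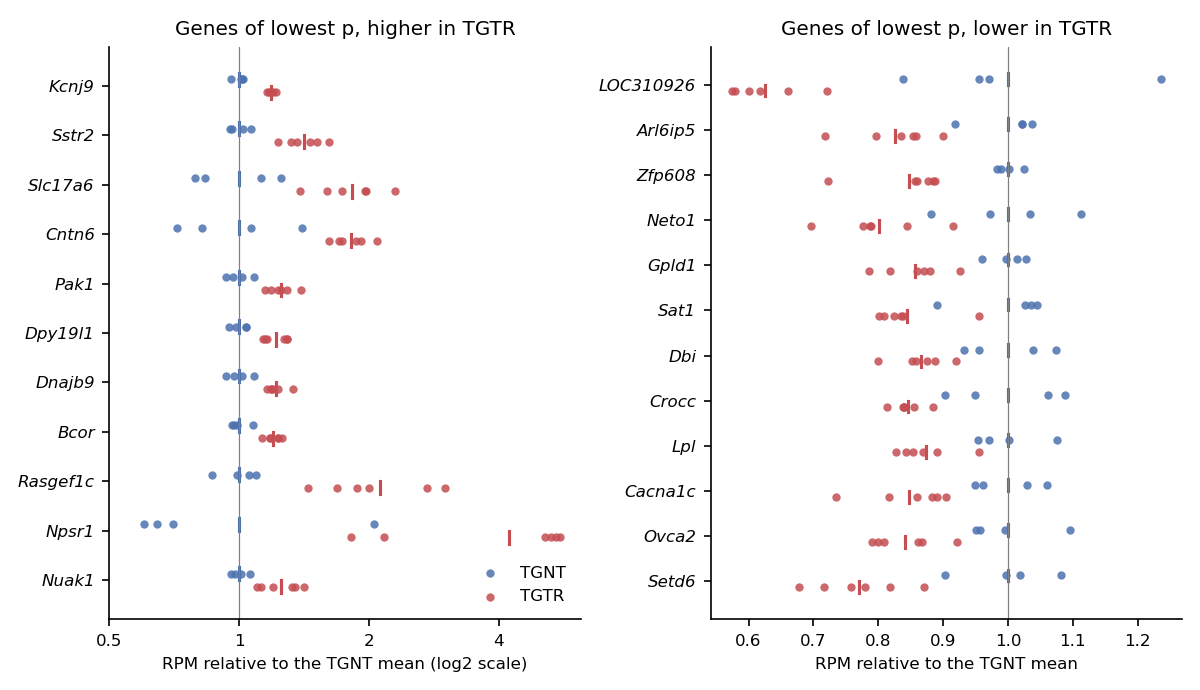
RPM of each rat relative to the TGNT mean for 11 of the 12 genes of lowest p that were higher (left, log2 axis) and the 12 that were lower (right, linear axis) in TGTR rats; points are rats, blue TGNT and red TGTR, and short bars are group means. Kcnj9 to Rasgef1c and Nuak1 do not overlap between groups on the left, while Npsr1 does, and on the right LOC310926 has the widest gap.

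The lowest p of all genes belonged to LOC310926, listed as a hypothetical protein and named RN18S, the symbol of 18S ribosomal RNA, in the study. It measured 3288, 2882, 3337 and 4249 RPM in the 4 TGNT rats and from 1977 to 2479 RPM with a median of 2094 in the 6 TGTR rats, without overlap (log2 fold change -0.67 ± 0.10, adjusted p = 0.149). Its estimated count was a fraction in all 10 rats. LOC102723236 and Rmrp, non-coding RNAs that poly(A) selection is meant to leave behind, were also lower in RPM in every TGTR rat. LOC102723236, the 7SL RNA of the signal recognition particle, measured 60077, 65365, 55569.9 and 52477 RPM in the 4 TGNT rats and from 33821 to 51195 RPM with a median of 45908 in the 6 TGTR rats (log2 fold change -0.40 ± 0.11), and TGNT 4 was the closest untreated rat to the treated ones. Rmrp, the RNA of RNase MRP, had a log2 fold change of -0.42 ± 0.12. Rn45s, the ribosomal precursor, and Rn28s, the 28S RNA, overlapped between groups, with 2.87% to 4.38% of the counts in TGNT and 2.36% to 3.31% in TGTR rats for Rn45s, and 0.402% to 0.731% and 0.322% to 0.763% for Rn28s, highest in TGTR 6. LOC102723236 alone took 5.11% to 6.36% and 3.38% to 5.17%. In this share TGTR 3 lay above TGNT 4, so the separation of LOC102723236 in RPM depends on the scaling. Together these 5 RNAs took 9.37% to 10.8% of the counts in TGNT and 7.11% to 8.96% in TGTR rats, and the groups did not overlap (p = 0.00476 by a two-sided exact permutation test, which allows no smaller p with 6 rats against 4). The 5 RNAs were brought together after their values were seen, with the gene of lowest p among them. This p therefore cannot serve as a test of their share. Whether this share bears on the other differences was not tested. Without the 5 RNAs the counts at unadjusted p under 0.05 were 480 higher and 254 lower.

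The other genes at the lower end lay close together, with log2 fold changes between -0.37 and -0.19 in the 11 that followed LOC310926. Arl6ip5, an ER membrane protein that restrains glutamate uptake, measured 39.4, 43.9, 43.9 and 44.5 RPM in the 4 TGNT rats and from 30.8 to 38.6 RPM with a median of 36.2 in the 6 TGTR rats (log2 fold change -0.27 ± 0.06, adjusted p = 0.858). Zfp608, a zinc finger gene, measured 61.8, 63.2, 60.6 and 61.0 RPM in the 4 TGNT rats and from 44.5 to 54.8 RPM with a median of 53.5 in the 6 TGTR rats (log2 fold change -0.23 ± 0.06). Cacna1c, the Cav1.2 subunit of L-type calcium channels, measured 225, 248, 240.5 and 222 RPM in the 4 TGNT rats and from 172 to 211 RPM with a median of 204 in the 6 TGTR rats (log2 fold change -0.24 ± 0.06). The groups did not overlap in any of these. Dbi, the acyl-CoA binding protein whose peptides act on GABA-A receptors, and Gpld1, a phospholipase that cleaves membrane anchors, also did not overlap, with log2 fold changes of -0.21 and -0.22. Neto1, an auxiliary subunit of kainate receptors enriched in CA3, measured 232, 272, 293 and 256 RPM in the 4 TGNT rats and from 183 to 241 RPM with a median of 207 in the 6 TGTR rats (log2 fold change -0.32 ± 0.08), and here TGTR 2 lay above TGNT 1. Sat1, the rate-limiting enzyme of polyamine catabolism, and Lpl, lipoprotein lipase, overlapped between groups by 1 rat in the same manner. Crocc, Ovca2 and Setd6, at -0.24, -0.25 and -0.37, did not.

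To describe pathways and families, 58 lists with 1410 genes, none in more than 1 list, were read against these backgrounds. Of the listed genes 1336 were in the table and 1296 were measured. The lists and their members were chosen with earlier results of these data known. Members of a list were measured in the same rats and are not separate observations. A share of a list beside its background is therefore a description and no test. In 34 of the 58 lists more than 50% of the members were higher in TGTR rats, and most medians lay within 0.1 of 0 on the log2 scale. Of all measured genes 50.1% were higher, which is a share of genes and no background for the count of lists. The immediate early genes had a median of 0.41. The lists whose medians moved most when 1 rat was left out were choroid plexus, blood, pericytes with smooth muscle and fibroblasts, ependyma and ventral hippocampus. The counts of members at an unadjusted p under 0.05 rest on few rats. Leaving out 1 rat moved the count of higher members by over 1.5 times in 32 of the 35 lists that had any, and that of lower members in 16 of 17. The plot of list medians shows each list with all rats and without TGTR 5.

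**Figure D3:**
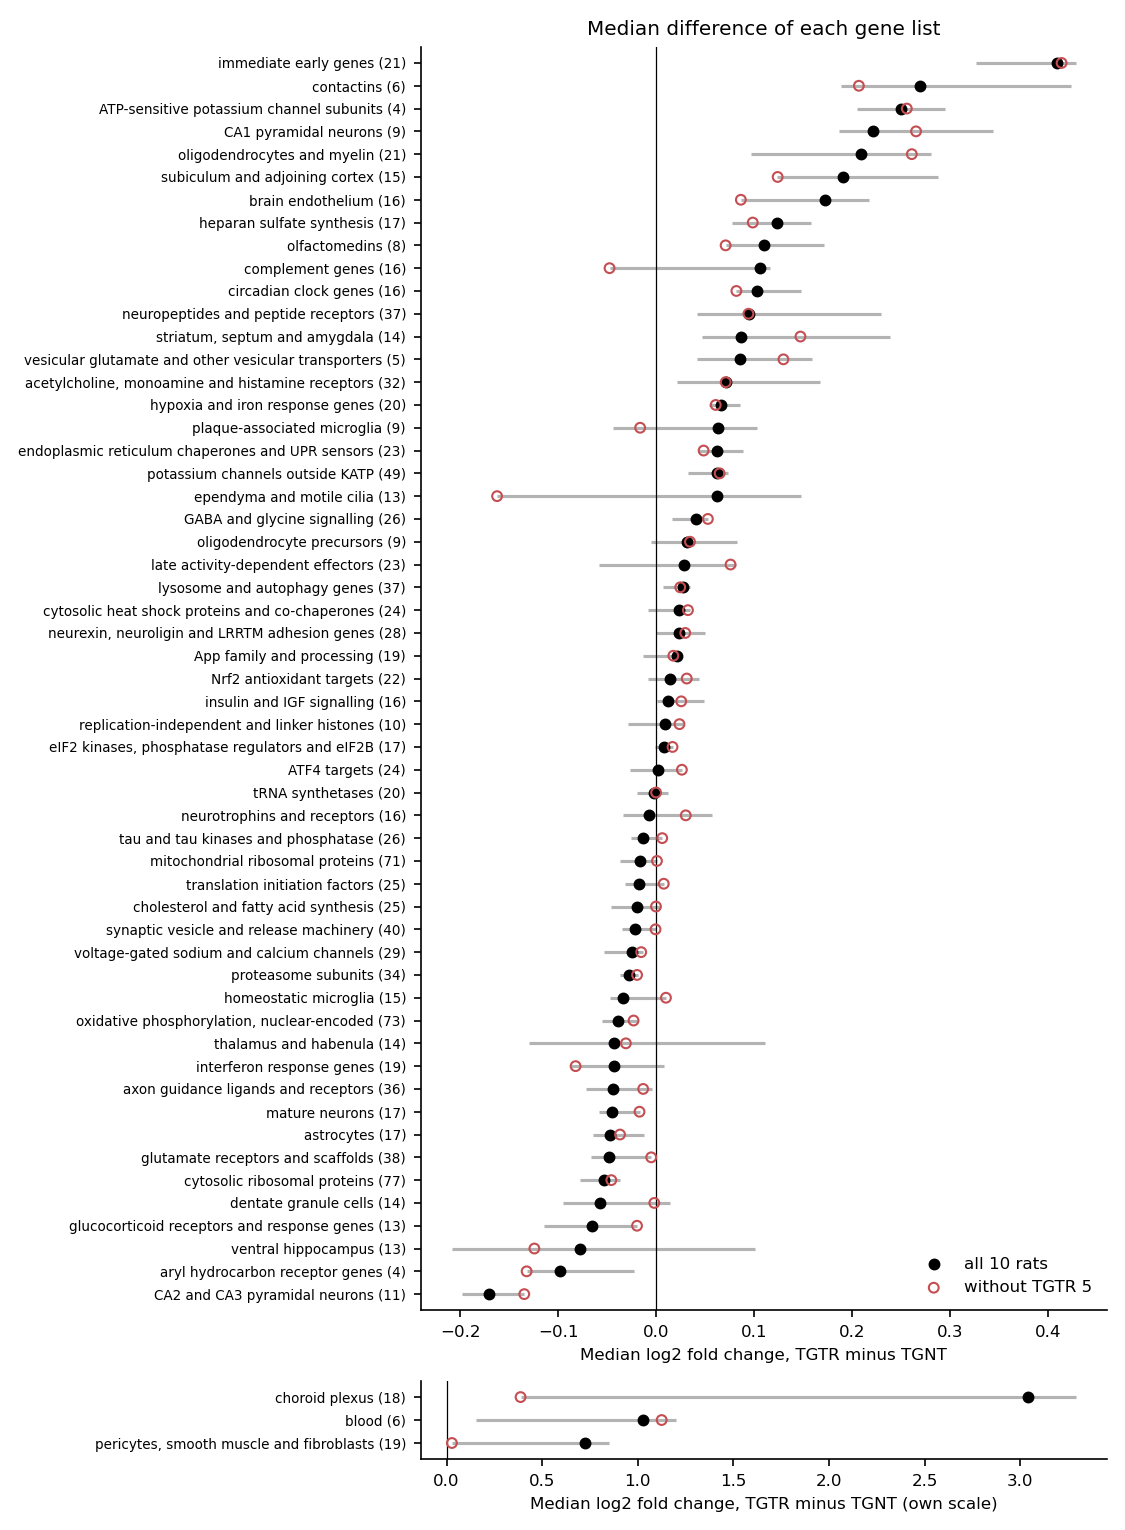
Median log2 fold change (TGTR minus TGNT) of the measured members of each of 58 gene lists, with the number of members in brackets; filled points use all 10 rats, open red points leave out TGTR 5, and grey bars span the fits that leave out each rat in turn, with the 3 lists of other tissues on their own scale. The immediate early genes lie at 0.41 with a bar that stays above 0, the CA2 and CA3 genes at -0.17 with a bar that stays below 0, and choroid plexus drops from 3.04 to 0.39 without TGTR 5.

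The immediate early genes had the largest share of members higher at an unadjusted p under 0.05 of the 58 lists: 19 of 21 measured members were higher in TGTR rats, 12 of them at that threshold (57.1% of the list against 3.9% of measured genes), and 0 were lower at that threshold. Their products are transcription factors and synaptic proteins made in the first minutes to hours after neuronal activity. By the methods of the study the rats had been tested on a maze, at an interval before collection that the labels used here do not give. Some are known to be controlled by CREB and by serum response factor, on which calcium signals act. Sites of these factors are shown for 3 members that were higher at an unadjusted p under 0.05, to give the letters of the element in its place. The RefSeq table of promoters (build GRCr8) held 16 of the 21 measured members, and the 250 bases before each start were searched on both strands. The cAMP response element TGACGTCA was in 3 of these 16, Btg2 and Dusp1 among them, against 1.70% of all 27457 promoters. The serum response element was in 2, Egr2 among them, against 1.501%, and 11 of the 16 held neither. The sequences run 5′ to 3′ on the gene's strand, with the element in capitals, and lie at chr13:48087844-48087931 (minus strand) for Btg2, chr10:17184689-17184776 (plus strand) for Dusp1 and chr20:21054475-21054564 (minus strand) for Egr2, where the last base printed is 154, 77 and 34 bases before the start.
Btg2: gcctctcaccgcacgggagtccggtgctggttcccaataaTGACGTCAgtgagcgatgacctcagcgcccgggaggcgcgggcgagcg
Dusp1: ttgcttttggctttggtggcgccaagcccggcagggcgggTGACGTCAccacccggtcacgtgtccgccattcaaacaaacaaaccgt
Egr2: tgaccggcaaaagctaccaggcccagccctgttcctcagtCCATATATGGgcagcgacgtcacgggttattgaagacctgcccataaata
A match describes the letters of the window and is not evidence that a factor bound there.

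By rat, the immediate early genes showed how far the treated rats spread. Fos, the AP-1 subunit, measured 3.24, 3.68, 2.71 and 4.88 RPM in the 4 TGNT rats and from 2.92 to 9.57 RPM with a median of 6.76 in the 6 TGTR rats (log2 fold change 0.88 ± 0.31). Its highest rats were TGTR 6 and TGTR 3, while TGTR 1 and TGTR 4 lay within the range of the untreated rats. Egr2, a zinc finger factor, measured 2.89, 2.83, 2.18 and 2.30 RPM in the 4 TGNT rats and from 2.13 to 6.62 RPM with a median of 4.65 in the 6 TGTR rats (log2 fold change 0.84 ± 0.26), and TGTR 4 was the lowest of all 10 rats in it. Arc, whose product removes AMPA receptors from synapses, measured 56.1, 96.5, 61.2 and 87.5 RPM in the 4 TGNT rats and from 71.99 to 140.0 RPM with a median of 108 in the 6 TGTR rats (log2 fold change 0.51 ± 0.20). In Egr4 the groups did not overlap, with 13.7, 15.1, 13.1 and 13.8 RPM in the 4 TGNT rats and from 15.6 to 23.0 RPM with a median of 17.6 in the 6 TGTR rats (log2 fold change 0.41 ± 0.11). Nr4a2, an orphan nuclear receptor, and Ier5, a regulator of the heat shock response, had the lowest p of the list, with log2 fold changes of 0.44 ± 0.12 and 0.42 ± 0.11. Dusp1, a phosphatase that ends MAP kinase signals, had 0.60 ± 0.20, and Cyr61, a matricellular protein, 1.11 ± 0.39. Fosb, Sik1, Btg2 and Egr1 had 0.26, 0.43, 0.29 and 0.39. TGTR 3 or TGTR 6 was the highest rat in Fosb, Egr1 and Btg2, as in Fos and Egr2. Jun and Nr4a3, the members with the most reads, did not share this pattern: Jun had -0.05 and Nr4a3 -0.04, both with signs that turned under some alternatives. The mean log2(RPM + 1) over the list was 4.16, 4.25, 4.06 and 4.26 in the TGNT rats and from 4.19 to 4.76 with a median of 4.51 in the TGTR rats, so the groups overlapped only in part. Left out in turn, single rats moved the median of the list between 0.33 and 0.43. The number of members at an unadjusted p under 0.05 was between 9, without TGNT 1 or without TGNT 3, and 15, without TGTR 4, in these fits.

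**Figure D4:**
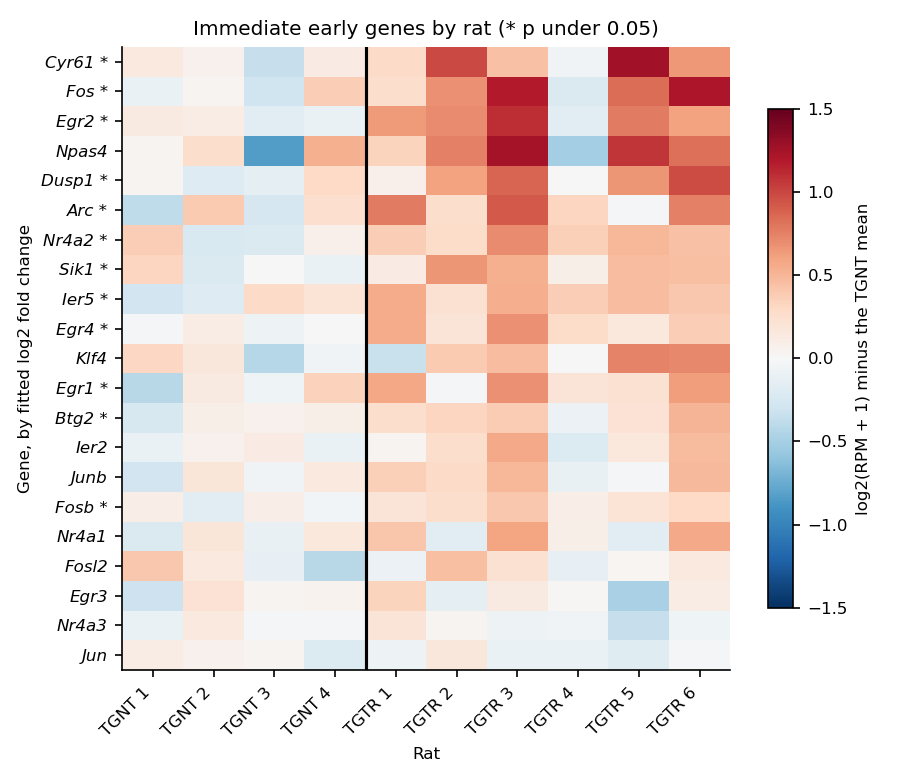
Heat map of the 21 measured immediate early genes (rows, ordered by fitted log2 fold change) in the 10 rats (columns), coloured by log2(RPM + 1) minus the mean of the TGNT rats; asterisks mark the 12 genes at an unadjusted p under 0.05. TGTR 3 and TGTR 6 are red in nearly all of the upper rows, TGTR 4 is close to the TGNT rats, and Jun and Nr4a3 at the bottom have fitted values of -0.05 and -0.04, whose signs turned under some alternatives.

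Genes that follow activity later showed less. Of 23 measured late effectors, 12 were higher, with a median of 0.03, and 3 were higher at an unadjusted p under 0.05. Homer1, a scaffold of metabotropic glutamate receptors, measured 133, 124, 129 and 139 RPM in the 4 TGNT rats and from 137 to 156 RPM with a median of 151 in the 6 TGTR rats (log2 fold change 0.19 ± 0.05). Vgf, a neuropeptide precursor induced by BDNF, had 0.19 ± 0.07. Rgs4, which shortens G protein signals, had 0.89 ± 0.37 but ranged from 35.9 to 126 RPM within the untreated rats, with TGNT 1 the highest. The clock genes, several of which also respond to activity, had a median of 0.10 with 13 of 16 higher. Bhlhe40, a repressor of clock transcription, measured 72.1, 57.7, 57.3 and 65.7 RPM in the 4 TGNT rats and from 69.7 to 83.4 RPM with a median of 77.9 in the 6 TGTR rats (log2 fold change 0.29 ± 0.07), and Nfil3 and Nr1d2 had 0.35 and 0.16. Among the glucocorticoid response genes Fkbp5, a co-chaperone that hormone-bound receptor induces, was lower, at 58.1, 78.3, 86.0 and 81.2 RPM in the 4 TGNT rats and from 51.4 to 68.0 RPM with a median of 64.4 in the 6 TGTR rats (log2 fold change -0.28 ± 0.11), while Nr3c1, the glucocorticoid receptor, was higher, at 0.17 ± 0.07. The times of day at which the rats were killed were not among the labels used here. Whether maze testing or food restriction bore on the activity, clock and glucocorticoid genes was not tested.

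The KATP channel, the target of DZ, is built from a pore subunit, Kcnj8 or Kcnj11, and a sulfonylurea receptor, Abcc8 or Abcc9. Abcc9, the SUR2 receptor of vessel walls and other cells, measured 15.2, 13.5, 12.3 and 14.4 RPM in the 4 TGNT rats and from 15.5 to 22.6 RPM with a median of 18.7 in the 6 TGTR rats. The groups did not overlap (log2 fold change 0.45 ± 0.11, adjusted p = 0.858), though its estimated count was a fraction in all 10 rats. Kcnj8, the Kir6.1 pore that pairs with it in pericytes, measured 1.75, 1.80, 1.80 and 1.93 RPM in the 4 TGNT rats and from 1.94 to 2.84 RPM with a median of 2.21 in the 6 TGTR rats (log2 fold change 0.31 ± 0.17). The ranges of Kcnj8 did not overlap, but they lay closer together than the RPM of 1 read. Of the list only Abcc9 had an unadjusted p under 0.05. The groups overlapped in the neuronal subunits, with 0.19 ± 0.11 for Kcnj11 and -0.15 ± 0.13 for Abcc8. Rgs5, a pericyte gene, was 0.35 ± 0.10, and the endothelial genes Esam, Kdr and Flt1 were 0.32, 0.26 and 0.18, each at an unadjusted p under 0.05. TGTR 5 stood apart in both lists, with a mean log2(RPM + 1) of 5.03 over the endothelial and 5.64 over the pericyte list against at most 4.77 and 3.74 in the other 9 rats, and without it the pericyte list went from a median of 0.72 to 0.03. Without TGNT 3, 0 of the 4 endothelial genes at that threshold kept it. In bulk tissue, more cells of a type and more RNA per cell cannot be told apart. Among the other potassium channels 33 of 49 were higher, 8 at an unadjusted p under 0.05 (16.3%) and 1 lower (2.04%), against backgrounds of 3.9% and 2.24%. The number higher was 2 without TGNT 2 and 12 without TGNT 1. Besides Kcnj9, the higher members included Kcna6, at 0.18 ± 0.06, Kcnk2, a mechanically gated leak channel, at 0.32 ± 0.11, and Kcnj4, at 0.16 ± 0.06, and the lower member was Kcnq5, a subunit of the M current, at -0.28 ± 0.10.

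For the pathway on which DIB acts, the transcripts of the eIF2 machinery showed no common direction. Eif2s1, which encodes eIF2α, measured 38.6, 44.3, 40.9 and 41.0 RPM in the 4 TGNT rats and from 40.2 to 49.3 RPM with a median of 44.4 in the 6 TGTR rats (log2 fold change 0.11 ± 0.06). Of the 17 kinases, phosphatase regulators and eIF2B subunits 9 were higher, with a median of 0.01, and Dnajc3, an inhibitor of the eIF2α kinase PERK, alone had an unadjusted p under 0.05, at 0.16 ± 0.06. The 24 measured targets of ATF4 split evenly, 12 higher and 12 lower, with a median of 0.00229 and 0 members at an unadjusted p under 0.05. Psph, the last enzyme of serine synthesis, had the lowest p of the list, at 0.27 ± 0.14. The tRNA synthetases, many of which ATF4 also controls, had 10 of 20 members higher.

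The ER chaperones and sensors of the unfolded protein response, which the ATF6 and XBP1 branches control, leaned upward: 19 of 23 measured members were higher, with a median of 0.06 and 4 at an unadjusted p under 0.05 (17.4% against 3.9%). Without TGNT 3 the members at that threshold were 2, and with library totals alone 9. Dnajb9, a co-chaperone of the ER chaperone BiP, measured 31.6, 32.98, 34.6 and 36.8 RPM in the 4 TGNT rats and from 39.4 to 45.2 RPM with a median of 40.5 in the 6 TGTR rats, and every TGTR rat lay above every TGNT rat (log2 fold change 0.28 ± 0.06, adjusted p = 0.527). Herpud1, a part of the ER degradation complex, measured 36.5, 41.5, 35.8 and 38.5 RPM in the 4 TGNT rats and from 38.2 to 48.8 RPM with a median of 43.7 in the 6 TGTR rats (log2 fold change 0.21 ± 0.07), with TGTR 4 within the TGNT range. Pdia4, a disulfide isomerase, had 0.15 ± 0.05, and Hsp90b1, the ER paralog of Hsp90, 0.12 ± 0.05. Canx and Calr, the lectin chaperones, which have the most reads of the list, had 0.06 ± 0.04 and 0.08 ± 0.05. The ER stress element to which ATF6 and XBP1 bind, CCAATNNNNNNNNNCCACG, was found on either strand in the 250 bases before the start of 6 of 17 members in the RefSeq promoter table, against 0.0765% of all promoters. No match to it was found for Dnajb9, Herpud1 and Pdia4, described above, while Hsp90b1 held it. The element is printed for 3 members, since several of the list hold it, in capitals on either strand. Hspa5, which encodes BiP, and Calr were chosen for it after their values were seen. They lie at chr7:23012307-23012509 (minus strand) for Hsp90b1, chr3:38452933-38453015 (plus strand) for Hspa5 and chr19:40213117-40213193 (plus strand) for Calr, and the last base printed is 14, 1 and 174 bases before the start.
Hsp90b1: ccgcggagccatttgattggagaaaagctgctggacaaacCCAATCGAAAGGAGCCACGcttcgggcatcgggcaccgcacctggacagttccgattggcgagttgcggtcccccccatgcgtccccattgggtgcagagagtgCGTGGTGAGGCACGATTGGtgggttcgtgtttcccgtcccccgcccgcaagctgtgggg
Hspa5: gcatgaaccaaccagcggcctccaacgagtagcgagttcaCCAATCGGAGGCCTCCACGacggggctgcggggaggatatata
Calr: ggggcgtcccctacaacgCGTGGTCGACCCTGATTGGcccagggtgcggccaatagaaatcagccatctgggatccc
Of these, Hsp90b1 holds 2 elements, and the log2 fold change of Hspa5 was 0.14 ± 0.07.

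DIB is a β-diketone, and compounds of this kind can bind iron and act on the antioxidant and xenobiotic responses. Of 20 measured genes of the hypoxia and iron response 16 were higher, 4 at an unadjusted p under 0.05 (20% against 3.9% of measured genes). The median was 0.07 and stayed between 0.05 and 0.10 over the alternatives. P4ha1, a prolyl hydroxylase of collagen and a HIF target, measured 46.6, 49.9, 48.7 and 45.5 RPM in the 4 TGNT rats and from 52.7 to 63.2 RPM with a median of 54.5 in the 6 TGTR rats, without overlap (log2 fold change 0.25 ± 0.06). Hif1a itself measured 93.8, 96.6, 97.2 and 102 RPM in the 4 TGNT rats and from 103 to 109.5 RPM with a median of 107 in the 6 TGTR rats, also without overlap (log2 fold change 0.13 ± 0.04). Ndrg1 and Egln3, both HIF targets, had 0.23 and 0.27. The Nrf2 targets had 12 of 22 members higher and a median of 0.01, and only Gstp1, a glutathione transferase, had an unadjusted p under 0.05, at 0.22 ± 0.08. Of the 8 aryl hydrocarbon receptor genes 4 were measured, 0 of them at an unadjusted p under 0.05, and Ahr had -0.17 ± 0.14. Igfbp4, an IGF binding protein, was the member of the insulin and IGF list with the lowest p, at 0.62 ± 0.19, with a fraction as its estimated count in all 10 rats.

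The families of the genes that the study names differed within themselves. Of the vesicular transporters Slc17a6 was higher, Slc17a8, the VGLUT3 transporter of a class of interneurons, was lower at -0.36 ± 0.14, and Slc17a7, the VGLUT1 transporter of hippocampal pyramidal and granule cells, had -0.13 ± 0.11. The 6 contactins had a median of 0.27, from 0.01 for Cntn1, whose sign turned in 6 of the alternatives, to 0.87 for Cntn6, and Cntn4 was the only other member at an unadjusted p under 0.05, at 0.37 ± 0.12. In heparan sulfate synthesis Ndst4, an N-deacetylase and sulfotransferase, measured 19.7, 12.9, 9.99 and 26.9 RPM in the 4 TGNT rats and from 24.1 to 39.2 RPM with a median of 32.1 in the 6 TGTR rats (log2 fold change 0.90 ± 0.22), Hs3st2, a 3-O-sulfotransferase, had 0.53 ± 0.17, and Sulf2, which removes 6-O-sulfate, was lower at -0.24 ± 0.09. Reads of Ndst4 were shared with other genes, as its count was a whole number in 1 rat. Olfm3, a secreted olfactomedin found with AMPA receptors, measured 22.3, 15.7, 21.3 and 32.7 RPM in the 4 TGNT rats and from 30.1 to 44.3 RPM with a median of 36.0 in the 6 TGTR rats (log2 fold change 0.68 ± 0.16), while Olfm1 had -0.01. In Ndst4 and Olfm3 TGNT 4 was the highest untreated rat and the only TGNT rat within the range of the treated.

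Synaptic genes had members on both sides of 0 and medians near it, and the list of mature neurons had a median of -0.04. Of 26 genes of GABA and glycine signalling 3 were higher at an unadjusted p under 0.05 (11.5% against 3.9% of measured genes) and 0 were lower. Among these were Gabrb2, the β2 subunit of the GABA-A receptor, at 57.3, 48.1, 51.5 and 62.3 RPM in the 4 TGNT rats and from 59.8 to 71.2 RPM with a median of 65.1 in the 6 TGTR rats (log2 fold change 0.26 ± 0.07), and Slc12a2, the chloride importer NKCC1, at 0.25 ± 0.09. The 38 glutamate receptors and scaffolds had 15 members higher and a median of -0.05. At an unadjusted p under 0.05, 4 were higher (10.5% against 3.9%), among them the kainate receptor Grik3 at 0.48 ± 0.19. That count was 0 without TGNT 3, 1 without TGNT 2 and 8 without TGNT 1. For GABA and glycine signalling 6 were higher and 1 lower without TGNT 1, and 3 higher and 4 lower without TGTR 2. In the release machinery Syt2, the fast calcium sensor of interneuron terminals, measured 12.6, 9.94, 11.6 and 11.4 RPM in the 4 TGNT rats and from 13.8 to 27.6 RPM with a median of 18.3 in the 6 TGTR rats, without overlap (log2 fold change 0.79 ± 0.21), and Sv2c had 0.31 ± 0.09. Bsn and Erc2, scaffolds of the active zone, were lower at -0.16 ± 0.06 and -0.17 ± 0.06, and every TGTR rat lay below every TGNT rat in Bsn. The channel genes split likewise. Of the sodium and calcium channels 3 were higher and 3 lower at that threshold (10.3% each, against 3.9% and 2.24% of measured genes). Cacnb4 had 0.29 and Scn1a 0.22, against Cacna1c at -0.24 and Cacna1d at -0.14. Axon guidance genes were as divided, with 4 higher and 4 lower (11.1% each, against the same backgrounds). Plxnd1, a semaphorin receptor, was among the higher at 0.38, and the ligand Slit1 at -0.22 and the netrin receptor Dcc at -0.18 among the lower. Without TGNT 3 the counts were 2 and 1 for the sodium and calcium channels and 0 and 2 for axon guidance, and without TGNT 1 they were 5 and 5, and 5 and 7. Of 16 neurotrophins and receptors 0 had an unadjusted p under 0.05.

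The neuropeptide list held 7 members higher at an unadjusted p under 0.05 of 37 measured (18.9% against 3.9%) and 1 lower, with a median of 0.09. Cckbr, the cholecystokinin receptor of pyramidal cells, measured 14.5, 8.91, 9.24 and 9.66 RPM in the 4 TGNT rats and from 12.6 to 19.4 RPM with a median of 15.03 in the 6 TGTR rats (log2 fold change 0.51 ± 0.16), with TGNT 1 among the treated rats. Adcyap1, the peptide PACAP, had 0.51 ± 0.15, Pnoc, the precursor of nociceptin, 0.54 ± 0.17, Cort, cortistatin of interneurons, 0.64 ± 0.25, and Sst, somatostatin, 0.27 ± 0.12. Npy2r, a presynaptic receptor for neuropeptide Y, was lower at -0.45 ± 0.20. Among the 32 receptors for acetylcholine, monoamines and histamine, Drd2 had 0.78 ± 0.27, Hrh2 0.35 ± 0.15 and Hrh1 -0.39 ± 0.16. Of the adhesion genes Cbln2, a synapse organiser, had 0.71 ± 0.23 and ranged from 7.71 to 19.5 RPM within the untreated rats. TGNT 1 was the highest untreated rat in Cckbr and Sst of the neuropeptide list, and in Cbln2 and Drd2 of the other lists. Without TGNT 1 the neuropeptide list had 11 higher members at that threshold and a median of 0.23. Without TGNT 3 it had 5 and a median of 0.04.

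Large housekeeping families had medians just below 0 with TMM scaling. Of 77 cytosolic ribosomal protein genes 11 were higher and 66 lower in TGTR rats, with a median of -0.05 that stayed between -0.08 and -0.02 over the alternatives. Of these 5 were lower at an unadjusted p under 0.05 (6.49% against 2.24%), 13 without TGTR 1, 2 without TGNT 2 and 1 with library totals alone, where 29 members were higher. Rps21, of the small subunit, measured 65.7, 67.3, 67.4 and 62.6 RPM in the 4 TGNT rats and from 44.5 to 61.2 RPM with a median of 56.8 in the 6 TGTR rats, without overlap (log2 fold change -0.24 ± 0.08), and Rps27 had -0.15 ± 0.05. Nuclear-encoded genes of oxidative phosphorylation had 23 of 73 members higher, with a median of -0.04, and proteasome subunits 8 of 34, with a median of -0.03. Mitochondrial ribosomal proteins had 28 of 71 higher and a median of -0.02. With library totals alone 20 of 34 proteasome subunits, 41 of 71 mitochondrial ribosomal proteins and 20 of 25 translation initiation factors were higher, so the direction of these lists depends on the scaling. Members of such families share length, base composition and library effects, so their common sign is a description of these libraries. Cytosolic heat shock genes (0.02), lysosome and autophagy genes (0.03) and genes of cholesterol and fatty acid synthesis (-0.02) had medians near 0, and each had 0 members at an unadjusted p under 0.05 in either direction. Translation initiation factors had 10 of 25 members higher and a median of -0.02, with Eif3e at -0.11 ± 0.05, and the histones 6 of 10 and 0.01.

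Genes tied to Alzheimer's disease differed little. Of 19 measured genes of the App family and its processing 0 had an unadjusted p under 0.05, and the lowest p was that of Adam10, the α-secretase, at 0.10 ± 0.05. Among 26 genes of tau, its kinases and its phosphatase, Ppp2cb, a catalytic subunit of the phosphatase PP2A, measured 127, 127, 131 and 134 RPM in the 4 TGNT rats and from 135 to 144 RPM with a median of 139 in the 6 TGTR rats, without overlap (log2 fold change 0.11 ± 0.04), and no other member had an unadjusted p under 0.05. Homeostatic microglial genes had a median of -0.03, with 0 of 15 members at that threshold. In the plaque-associated list, of which 9 genes were measured, Spp1, osteopontin, was at 0.351, 0.685, 0.977 and 1.01 RPM in TGNT and from 1.05 to 1.82 RPM with a median of 1.39 in TGTR rats (log2 fold change 0.93 ± 0.30), and Lpl was lower. The astrocyte list had 3 of 17 members higher and a median of -0.05, with Cd44, a hyaluronan receptor, at 0.34 ± 0.10. Cd55, a regulator of complement, was 0.66 ± 0.25, the interferon response genes had 6 of 19 members higher, and the median of the complement list went from 0.11 to -0.05 without TGTR 5.

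The regional markers set the gene differences beside differences in what each dissection held. For the subiculum and adjoining cortex 11 of 15 measured markers were higher, with a median of 0.19 that ran from 0.12 to 0.29 when each rat was left out, highest without TGNT 1. Nxph3, a neurexin ligand of subicular and deep cortical neurons, measured 15.2, 1.46, 1.43 and 5.80 RPM in the 4 TGNT rats and from 11.9 to 22.01 RPM with a median of 18.9 in the 6 TGTR rats (log2 fold change 1.62 ± 0.49). TGNT 2 and TGNT 3 stood far below the other 8 rats, and TGNT 1 lay inside the treated range. Tbr1 and Fezf2, transcription factors of deep cortical layers, had 0.46 ± 0.14 and 0.38 ± 0.17. The mean log2(RPM + 1) of the list was 5.56, 5.15, 5.25 and 5.39 in the TGNT rats and from 5.44 to 5.72 with a median of 5.56 in the TGTR rats, lowest in TGNT 2 and TGNT 3, while its summed RPM, carried by its most abundant members, was 1191 to 1276 and 1236 to 1302. Slc17a6, Cntn6, Olfm3, Cbln2, Cckbr and Rgs4 were also lowest in TGNT 2 and TGNT 3. Whether the amount of subiculum in the dissections had a part in these differences was not tested.

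CA1 markers were mostly higher, 8 of 9 with a median of 0.22, among them Satb1 at 0.39 ± 0.14, which the cortex also expresses, and CA2 and CA3 markers mostly lower, 9 of 11 with a median of -0.17. Among the latter Pvrl3, the adhesion protein nectin-3 of CA3, measured 38.3, 48.7, 49.3 and 44.7 RPM in the 4 TGNT rats and from 34.7 to 42.5 RPM with a median of 37.8 in the 6 TGTR rats (log2 fold change -0.25 ± 0.08), and Pcp4, a calmodulin regulator of CA2, had -0.14 ± 0.05. The mean log2 level of the CA2 and CA3 list was 4.805, 5.10, 5.10 and 5.01 in the TGNT rats and from 4.75 to 4.94 with a median of 4.91 in the TGTR rats, with TGNT 1 below 5 of them. Dentate granule cell markers had 5 of 14 members higher, a median of -0.06 and 0 at an unadjusted p under 0.05, and Prox1 had -0.05. Ventral hippocampal markers varied more within the groups than between them: the mean level was 4.93, 4.26, 4.37 and 4.13 in the TGNT rats and from 3.93 to 4.81 with a median of 4.23 in the TGTR rats, highest in TGNT 1 and TGTR 2. Myelin genes had 19 of 21 members higher and a median of 0.21, from 0.10 without TGNT 1 to 0.28 without TGTR 2, with Tf, transferrin, at 0.37 ± 0.14 and Ermn at 0.30 ± 0.12. Oligodendrocyte precursors had a median of 0.03, and ependyma one of 0.06 with all rats and -0.16 without TGTR 5. The endothelial list had 14 of 16 members higher and a median of 0.17, and 0.09 without TGTR 5. Markers of striatum, septum and amygdala had a median of 0.09, and 0.24 without TGNT 1. Those of thalamus and habenula had -0.04, from -0.13 without TGNT 1 to 0.11 without TGNT 2, and Slitrk6 was 0.36 ± 0.15 and Vav2 -0.19 ± 0.08. The 14 measured members of the latter list had a summed RPM of 408 to 535 in the untreated and 443 to 543 in the treated rats, of which Adarb1, an RNA-editing enzyme of many neurons, averaged 277 RPM, and Gbx2 was listed at 0 in all 10 rats. Thalamic neurons also express Slc17a6, and their part in its difference was not tested.

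**Figure D5:**
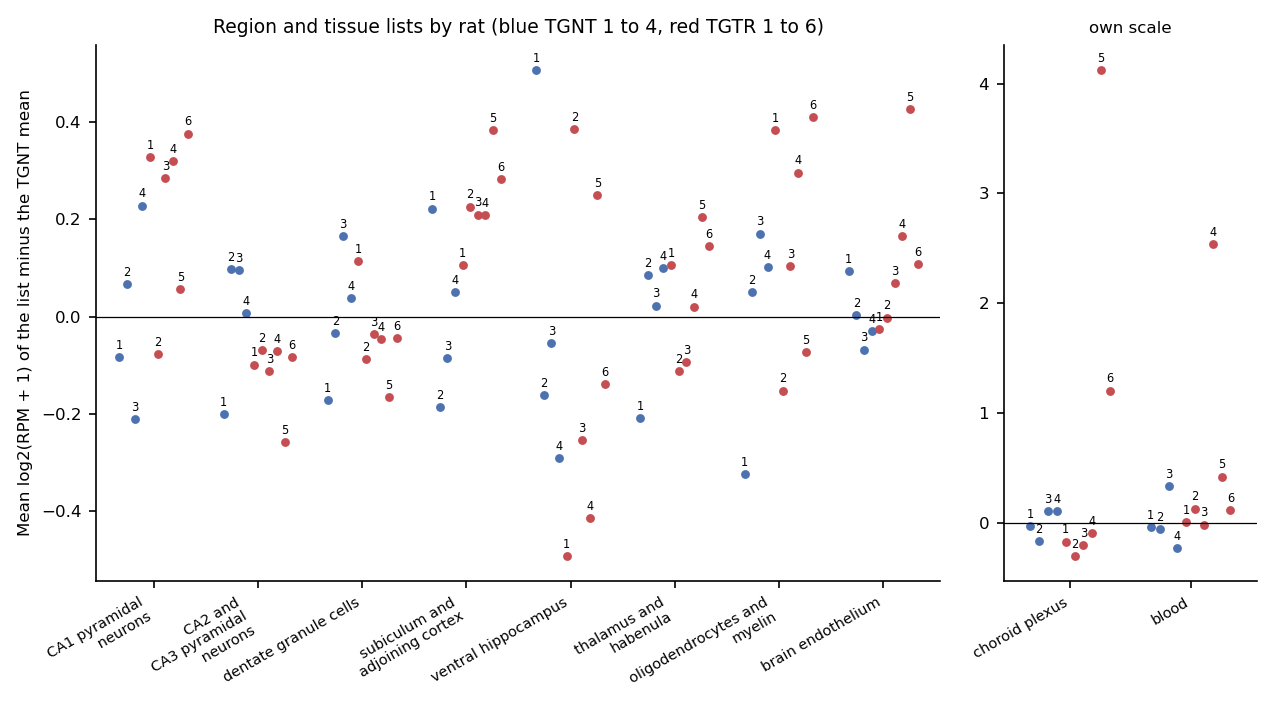
Mean log2(RPM + 1) of the measured markers of each region or tissue in every rat, minus the mean of the TGNT rats; blue points are TGNT and red TGTR rats, numbered by rat, and choroid plexus and blood have their own scale. In the subiculum list TGNT 2 and TGNT 3 are lowest, TGNT 1 lies among the treated rats, and in choroid plexus TGTR 5 lies at 5.82 on the log2 scale before the TGNT mean is taken off, against 2.89 in TGTR 6.

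RNA of tissue other than hippocampal parenchyma stood out in single rats. All 18 choroid plexus genes were higher in TGTR rats, with a median of 3.04, and their summed RPM was 120.2 to 175 in TGNT and 131 to 4069 in TGTR rats. Without TGTR 5 the median was 0.39 and 1 of the 9 members that had an unadjusted p under 0.05 kept one, and without both TGTR 5 and TGTR 6 the median was -0.24. The list of pericytes, smooth muscle and fibroblasts went from 0.72 to 0.03 without TGTR 5, with Acta2 at 45.6 RPM in that rat and 7.46 to 9.93 RPM in the other TGTR rats. The summed RPM of the blood list was 208 to 323 in TGNT and 240.0 to 1751 in TGTR rats, and its median went from 1.03 to 0.16 without TGTR 4. Without TGTR 5 the log2 fold change was 0.26 for Kcnj9, 0.54 for Sstr2, 0.85 for Slc17a6, 0.26 for Dnajb9 and -0.65 for LOC310926, and the medians were 0.41 for the immediate early genes, 0.05 for the ER chaperones and -0.05 for the ribosomal proteins.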

How the data were processed

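Hippocampal mRNA libraries (10 rats, 1 each) were analysed from the authors' treatment tables. Per the processing notes of the submitters, reads were demultiplexed with bcl2fastq 2.17, aligned to rn6 with Bowtie2 2.1.0 and quantified with RSEM 1.2.15. The authors deposited unnormalized estimated counts per gene, and a signal table of library-scaled reads (RPM) that they made with edgeR's TMM factors. For all 17168 genes the rounded counts were fitted with edgeR 4.0.16 (R 4.3.3, TMM, quasi-likelihood test, Benjamini-Hochberg adjustment, group as the term). Levels are RPM, and list levels are means of log2(RPM + 1). limma 3.58.1 and DESeq2 1.42.0 were alternatives, and the fit was tested on simulated data. Permutation tests used all 210 arrangements of the rats. Reads shared by several genes show as fractional counts, which were counted per gene. Named were the genes the study names for this treatment, App and Eif2s1, the 12 higher and 12 lower genes of lowest p with a mean of at least 10 counts, and in each list the members at an unadjusted p under 0.05, the 2 of lowest p and the 2 of highest RPM, of which some are given as counts. Clec3a, Hspa5, LOC102723236, Rmrp, Rn45s, Rn28s and Prox1 were named after their values were seen. The members and lists were chosen with earlier results of these data known. Promoters were taken from RefSeq (GRCr8), for their sequences only. The second transgene and some genes that the rule names are not reported here.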

Additional observations from a re-analysis of the deposited data

Results flagged for a closer look

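The values of the named genes and of the lists were searched for single rats far from the others of their group, by a gap to the nearest rat larger than Dixon's 95% critical value allows. Of 306 groups tested, 28 held such a rat, against about 15.3 that 1 in 20 groups would give by chance. Each is given with the nearest rat of its group. TGTR 5 lay above the rest of its group in Ttr at 2501 RPM against 108, Acta2 at 45.6 RPM against 9.93, Ahr at 10.7 RPM against 7.67, Tmem72 at 54.0 RPM against 2.19, the mean log2(RPM + 1) of choroid plexus markers at 5.82 against 2.89 and the mean log2(RPM + 1) of pericyte, smooth muscle and fibroblast markers at 5.64 against 3.71. TGTR 5 lay below the rest of its group in Zfp608 at 44.5 RPM against 52.8, Bsn at 1865 RPM against 2169.9, Dcc at 84.3 RPM against 101 and the mean log2(RPM + 1) of CA2 and CA3 markers at 4.75 against 4.89. TGTR 4 lay above the rest of its group in Sat1 at 60.5 RPM against 53.1, Hba1 at 669 RPM against 128 and the mean log2(RPM + 1) of blood markers at 6.64 against 4.53. TGTR 4 lay below the rest of its group in Pdia4 at 44.8 RPM against 50.2. TGNT 1 lay above the rest of its group in Npsr1 at 0.876 RPM against 0.301, Cckbr at 14.5 RPM against 9.66 and Kdr at 25.9 RPM against 20.5. TGNT 1 lay below the rest of its group in Arl6ip5 at 39.4 RPM against 43.9, Sat1 at 56.4 RPM against 65.0 and Btg2 at 13.3 RPM against 16.6. TGTR 1 lay above the rest of its group in Calr at 519 RPM against 466 and the mean log2(RPM + 1) of ER chaperones at 6.30 against 6.21. TGTR 2 lay below the rest of its group in Plxnd1 at 39.4 RPM against 59.6. TGTR 3 lay above the rest of its group in Drd2 at 3.71 RPM against 3.23. TGNT 2 lay above the rest of its group in Bsn at 2638 RPM against 2369.5. TGNT 3 lay below the rest of its group in Cort at 0.751 RPM against 1.93. TGNT 4 lay above the rest of its group in Pnoc at 6.44 RPM against 4.99. TGNT 4 lay below the rest of its group in Ahr at 7.45 RPM against 8.995.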

How the results depend on the processing

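Alternatives were other scalings, filters and tests, the replicate number as a block, and each rat left out in turn. The count of genes called at an adjusted p under 0.05 and 1.5-fold went from 0 to 5 with edgeR's likelihood ratio test (Slc17a6, Cntn6, LOC310926, Npsr1 and Clec3a), to 3 with edgeR's exact test and to 3 with DESeq2 (the first 3 of these), and was 0 in the limma, robust and filtered fits and in each fit with 1 rat left out. The numbers of higher and lower genes at an unadjusted p under 0.05 were 821 and 116 with library totals alone, which moved the median of measured genes by 0.04 on the log2 scale. With each rat left out in turn they ranged from 271 to 694 and from 197 to 395, lowest without TGNT 2 and highest without TGNT 1. The replicate block gave 1 called gene, Ttr, which was lower at -2.55. It gave 216 higher and 157 lower, with 6 of the immediate early genes, 2 of the ER chaperones and 4 of the potassium channels outside KATP among the higher. Numbers 5 and 6 occur only among TGTR rats, so with the block TGTR 5 and TGTR 6 add nothing to the group difference. Rats of the same number did not deviate together, so no pairing by number was seen in these values. Whether rats of the same number shared a cage or a processing step cannot be told from them. Of 3 alternatives chosen after seeing the data, leaving out TGNT 1 and TGTR 5 together gave 15 called genes, Slc17a6, Cntn6, LOC310926, Nxph3, Fezf2, Cckbr and Grik3 among them, and 640 higher and 502 lower. Signs of log2 fold changes turned in genes whose difference was near 0, and in Ttr. App ranged over -0.015 to 0.062 with each rat left out, Cntn1 over -0.019 to 0.021, Nr4a3 over -0.096 to 0.015, Jun over -0.12 to -0.014, Olfm1 over -0.10 to 0.043, Prox1 over -0.20 to 0.066 and Rn28s over -0.26 to 0.054. With the block they were -0.025 for Cntn1, 0.029 for Nr4a3, 0.055 for Olfm1, 0.069 for Prox1 and -2.55 for Ttr. Without TGTR 5 and TGTR 6 they were -0.029 for Cntn1, 0.028 for Nr4a3, 0.046 for Olfm1, 0.055 for Prox1 and -2.55 for Ttr. Without TGNT 1 and TGTR 5, the log2 fold change of Cntn1 was -0.000634 and that of Jun 0.0062, and with library totals alone Olfm1 was 0.022. The cause of these changes was not tested. Of the other values, 3273 fold changes kept their direction and their side of the threshold and 35 passed it, and 1433 list medians moved by less than the spread between rats and 17 by more. With 6 rats against 4 and the depth of these libraries, differences in genes under 10 counts were not described, and each p-value covers the spread between rats of 1 comparison.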
